A study of Homo sapiens with 6 samples.

Results

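G1/S and DNA replication genes are the genes whose products bring a cell from G1 into S phase and copy its DNA. The 40 genes described here were chosen by symbol, from licensing, helicase, polymerase and nucleotide supply genes and the regulators of S phase entry. Of these, 39 were found by symbol among the 57736 genes of the deposited count table; UHRF1 was not matched to a row and was not analysed here. All 39 passed the filter on low counts, which kept 15421 genes. Each of the 39 had at least 129 expected counts in every library.

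The libraries come from AALE cells, an airway line of basal epithelial origin (bronchus) carrying SV40 and hTERT (telomerase), grown in small airway growth medium (SAGM). One group (3 libraries, NRG1 1 to 3) carried a lentivirus overexpressing NRG1, which encodes neuregulin, a ligand of ERBB receptors. The other (3 libraries, control 1 to 3) carried a lentiviral control vector. Both groups were stable selected pools rather than single clones, and both share the SV40 and hTERT background. The sources used here do not name the promoter that drives NRG1 in the vector. PolyA RNA was made into libraries with a kit that does not mark strand. No label says whether libraries of a group are separate cultures, so every p-value reflects only how these libraries vary, and that variation may be technical.

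In G1 the origin recognition complex, with CDC6 and CDT1, loads the ring of MCM2 to MCM7 onto DNA, a step called licensing. Cyclin E with its kinase partner, and E2F transcription factors freed from the retinoblastoma protein, then start S phase, when CDC45 and the GINS complex turn the ring into an active helicase. Many genes of this machinery are transcribed under E2F control. The SV40 large T antigen is known to bind the retinoblastoma protein and release E2F, and ERBB receptor signalling is known to promote passage through G1 in epithelial cells. In bulk RNA, fewer cells in S phase and less RNA per cell cannot be told apart.

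The promoters of these genes show what they share at the sequence level. Promoter windows from RefSeq (GRCh38.p14, 250 bases before to 50 after the annotated start) were found for 36 of the 40 genes. An E2F motif, taken as TTTCCCGC or TTTCGCGC or TTTGCCGC or TTTGGCGC on either strand, overlapping matches included, stood in the windows of 20 of the 36 (55.6%), against 3.99% of all 27305 genes with a window, noncoding genes included. Of 22 mitotic genes with a window, 2 (9.09%) held it. The CHR element of mitotic promoters, taken as TTTGAA or TTCGAA on either strand, went the other way, with 5.56% of the 36 genes, 68.2% of the mitotic genes and 19.5% of all genes. The CCAAT box, taken as the letters CCAAT on either strand, stood in 58.3% of the 36 genes, 72.7% of the mitotic genes and 39.7% of all genes. A match describes letters in a window and is no proof of a site.

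**Figure D1:**
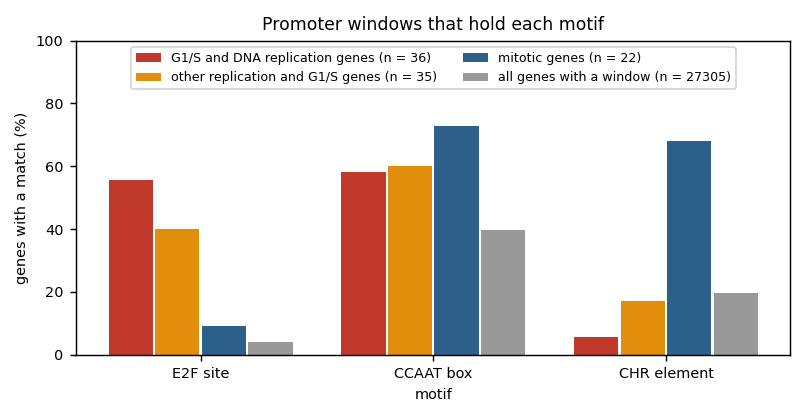
Share of genes (vertical axis, %) with a match to each motif (horizontal axis) in a RefSeq promoter window, for the G1/S and DNA replication genes, the other replication and G1/S genes, the mitotic genes and all genes with a window. The E2F bar is highest for the G1/S and DNA replication genes at 55.6%, and the CHR bar for the mitotic genes at 68.2%.

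The windows of E2F1, CDC6, POLE and MCM3 are printed because, of the genes with an E2F match, these had the smallest p between the groups. Each runs 5′ to 3′ on the gene's strand, with the E2F matches in capitals: E2F1 at chr20:33686336-33686635 (minus strand), CDC6 at chr17:40287629-40287928 (plus strand), POLE at chr12:132687293-132687592 (minus strand) and MCM3 at chr6:52284693-52284992 (minus strand).
E2F1: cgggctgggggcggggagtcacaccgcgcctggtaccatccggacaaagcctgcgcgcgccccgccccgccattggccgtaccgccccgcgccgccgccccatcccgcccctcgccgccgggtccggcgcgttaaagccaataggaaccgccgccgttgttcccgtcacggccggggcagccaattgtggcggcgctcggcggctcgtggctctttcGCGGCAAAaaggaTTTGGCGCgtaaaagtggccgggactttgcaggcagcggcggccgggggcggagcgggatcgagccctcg
CDC6: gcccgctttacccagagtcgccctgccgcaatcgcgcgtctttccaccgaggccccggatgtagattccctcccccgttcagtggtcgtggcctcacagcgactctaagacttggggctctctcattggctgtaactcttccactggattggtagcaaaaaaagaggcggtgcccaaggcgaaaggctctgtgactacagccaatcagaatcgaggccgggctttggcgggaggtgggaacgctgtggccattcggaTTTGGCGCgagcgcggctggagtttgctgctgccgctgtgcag
POLE: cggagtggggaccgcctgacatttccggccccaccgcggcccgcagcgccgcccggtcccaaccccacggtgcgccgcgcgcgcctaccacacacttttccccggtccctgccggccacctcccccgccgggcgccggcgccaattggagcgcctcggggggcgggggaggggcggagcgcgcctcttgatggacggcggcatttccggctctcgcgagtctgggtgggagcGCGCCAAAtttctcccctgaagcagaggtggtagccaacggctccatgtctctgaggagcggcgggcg
MCM3: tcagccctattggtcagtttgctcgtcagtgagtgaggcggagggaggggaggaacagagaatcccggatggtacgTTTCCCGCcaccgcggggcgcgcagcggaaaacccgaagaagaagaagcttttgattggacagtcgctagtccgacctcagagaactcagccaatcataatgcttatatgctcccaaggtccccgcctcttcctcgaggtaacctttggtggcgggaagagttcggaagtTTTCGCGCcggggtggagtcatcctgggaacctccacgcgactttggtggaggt

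The E2F1 window holds a pair of matches within 33 bases before the start, one on each strand, and E2F1 is itself an E2F factor. The CDC6 match begins at position 8, counting the start as 1. Among genes with a value, the 19 with an E2F match had a median log2 fold change, NRG1 over control, of -0.25. The 16 with a window and no match had one of -0.37. The difference was not tested, and a window without these letters does not show that a gene lacks E2F control.

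Most G1/S and DNA replication genes had less RNA on average in the NRG1 than in the control libraries. None passed the test over all genes. The lower levels lay mainly in NRG1 2 and NRG1 3, each with a median of -0.44 relative to the control mean. In NRG1 1 that median was 0.00032. Of the 39 genes, 30 had a log2 fold change below 0, against 7705 of all 15421 genes tested, and the median was -0.28 against 0.00034 over all genes. With edgeR's quasi-likelihood test and Benjamini-Hochberg adjustment, 0 of the 39 genes reached an adjusted p under 0.05, as did 0.00648% of all genes, namely NRG1 itself. At an unadjusted p under 0.05 there were 11 of the 39, all lower, against 6.72% of all genes lower and 5.08% higher. In 10 of the 39 the 3 NRG1 libraries all lay below the 3 controls, and in 1 all lay above, against 10.2% and 9.36% of all genes. DESeq2 called 1 of the 39, CHAF1A, as lower (adjusted p = 0.0136), against 0.759% of all genes called as lower and 0.597% as higher. An exact permutation test of a single gene cannot go below p = 0.1 with 3 against 3 libraries.

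NRG1 was at 6647, 3854 and 3781 CPM (counts scaled to library size, with TMM factors) in NRG1 1 to 3, against 11.6, 7.87 and 12.3 in control 1 to 3. Total expected counts were 8612234 to 10609067 in the NRG1 libraries and 9549284 to 13207620 in the control libraries. Control 3 and NRG1 1 stood apart from the other libraries of their groups. The root mean square distance over tested genes, in log2 CPM, was 0.36 between NRG1 2 and NRG1 3, but 0.81 and 0.80 from NRG1 1 to them. It was 0.51 between control 1 and control 2, but 0.80 and 0.81 from control 3 to them. Between groups it was 0.61 to 0.73 from control 1 and control 2 to the NRG1 libraries, and 0.96 to 0.99 from control 3 to these. Control 1 and control 2 thus lay nearer to every NRG1 library than to control 3, and NRG1 1 lay nearer to them than to NRG1 2 and NRG1 3. The 10 airway basal markers were detected in every library and summed to 6607 to 8079 CPM in NRG1 and 9694 to 13788 CPM in control libraries. The 10 fibroblast markers, of which 0 were at 0 in every library, summed to 30.4 to 33.9 CPM in NRG1 and 83.6 to 124 CPM in control, and their part in the results was not tested. Of other cell types, 3 of 10 leukocyte markers (CD3E, MS4A1 and NKG7) were at 0 in all 6 libraries. So were 1 of 7 endothelial markers found (CDH5) and 1 of 8 secretory markers (SCGB3A2). The other markers of these lists had counts in at least 1 library, as did every ciliated cell marker found. Over the 6 libraries, leukocyte markers summed to 9.99 to 34.6 CPM, endothelial markers to 14.8 to 18.5 CPM and secretory markers to 3.22 to 68.9 CPM.

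**Figure D2:**
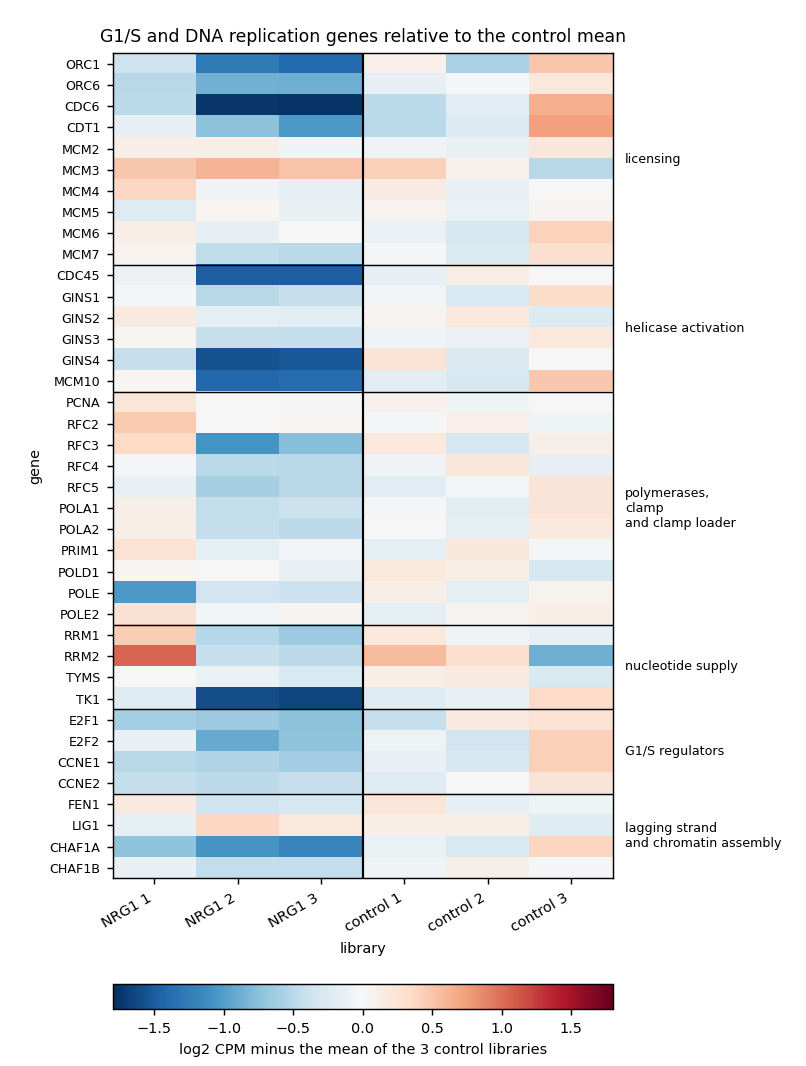
Level of each of the 39 genes (rows, grouped by role) in each library (columns), as log2 CPM minus the mean of the 3 control libraries; blue is lower and red is higher. NRG1 2 and NRG1 3 are blue in most rows, NRG1 1 is mixed, and the G1/S regulators are blue in all 3 NRG1 libraries.

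The regulators of S phase entry were lower in every NRG1 library for 3 of 4 genes, against 10.2% of all genes tested. E2F1, which activates S phase genes, was at 85.2, 82.9 and 77.9 CPM in NRG1 1 to 3, against 97.5, 145 and 156 CPM in control 1 to 3. The groups did not overlap, and the spread was narrow in NRG1 (82.0 ± 3.69 CPM) and wide in control (133 ± 31.3 CPM; SD, n = 3 each). CCNE1, which encodes the cyclin that activates CDK2 at the G1/S boundary, was at 17.2, 16.7 and 15.7 CPM in NRG1 1 to 3, against 22.2, 20.0 and 32.9 CPM in control 1 to 3. Its paralog CCNE2 was at 46.5, 45.0 and 46.6 CPM in NRG1 1 to 3, against 53.0, 62.6 and 73.1 CPM in control 1 to 3. As with E2F1, both cyclin E genes were nearly level among the NRG1 libraries and separate from the controls. The log2 fold changes were -0.70 (SE 0.20) for E2F1, -0.60 (SE 0.25) for CCNE1 and -0.45 (SE 0.18) for CCNE2, with adjusted p of 0.332, 0.413 and 0.395 in edgeR. Without control 3 the value for CCNE1 was -0.36. E2F2, another activator, overlapped, with 13.6 to 23.6 CPM in NRG1 and 20.4 to 34.9 CPM in control. These 4 genes had a median log2 fold change of -0.60, and one of -0.36 without control 3.

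Among licensing genes, the 4 loader genes ORC1, ORC6, CDC6 and CDT1 had fold changes below 0 and none was called, and 4 of the 6 ring genes had values near 0. Of the 10 licensing genes, 2 lay lower in every NRG1 library, ORC6 and CDC6, against 10.2% of all genes tested. Groups overlapped in ORC1 and CDT1. ORC6, the smallest subunit of the origin recognition complex, was at 39.4, 30.6 and 30.4 CPM in NRG1 1 to 3, against 50.3, 54.6 and 63.8 CPM in control 1 to 3. The groups did not overlap, and the log2 fold change was -0.75 (SE 0.19, adjusted p = 0.318 in edgeR). ORC1, the largest subunit, was at 28.7, 15.23 and 14.004 CPM in NRG1 1 to 3, against 39.5, 24.7 and 52.2 CPM in control 1 to 3, so NRG1 1 lay above control 2, and its log2 fold change was -1.02 (SE 0.36, adjusted p = 0.371 in edgeR). CDC6, the ATPase that joins the complex to load the helicase, was at 122.1, 50.5 and 49.8 CPM in NRG1 1 to 3, against 122.4, 149 and 268 CPM in control 1 to 3. NRG1 1 thus touched control 1, while NRG1 2 and NRG1 3 lay far below every control. CDC6 had the lowest fold change of the 39 genes, -1.28 on the log2 scale (SE 0.42, adjusted p = 0.358 in edgeR), and it was -0.89 without control 3, whose level was the highest. CDT1, its partner in loading, overlapped between the groups, with 44.4 to 82.2 CPM in NRG1 and 64.6 to 152 CPM in control. CDT1 had a log2 fold change of -0.70 (SE 0.36) with all 6 libraries, and one of -0.23 without control 3.

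The ring genes MCM2, MCM4, MCM5 and MCM6 had log2 fold changes from -0.10 to 0.06, with overlapping groups. MCM3 was the gene of the 39 that lay higher in all 3 NRG1 libraries, at 304, 332 and 311 CPM in NRG1 1 to 3, against 294, 229 and 153 CPM in control 1 to 3. Its nearest libraries, NRG1 1 and control 1, lay close together, and the log2 fold change was 0.49 (SE 0.23, adjusted p = 0.442 in edgeR), or 0.26 without control 3, the lowest library. MCM7 was at 235 to 344 CPM in NRG1 and 277 to 400.1 CPM in control. On a per-length scale (TPM computed from the expected counts and GENCODE 29 exon lengths), the 6 ring genes spanned a level of 67.7 ± 8.98 for MCM5 to 342 ± 29.9 for MCM3 in NRG1, and of 75.7 ± 4.17 for MCM5 to 312 ± 59.3 for MCM7 in control (SD, n = 3 each). Their proteins meet in equal numbers in the ring, and the highest over the lowest RNA level was 5.05 in NRG1 and 4.12 in control. The lengths merged all annotated exons and ignored isoform use, so this ratio also depends on the lengths taken.

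**Figure D3:**
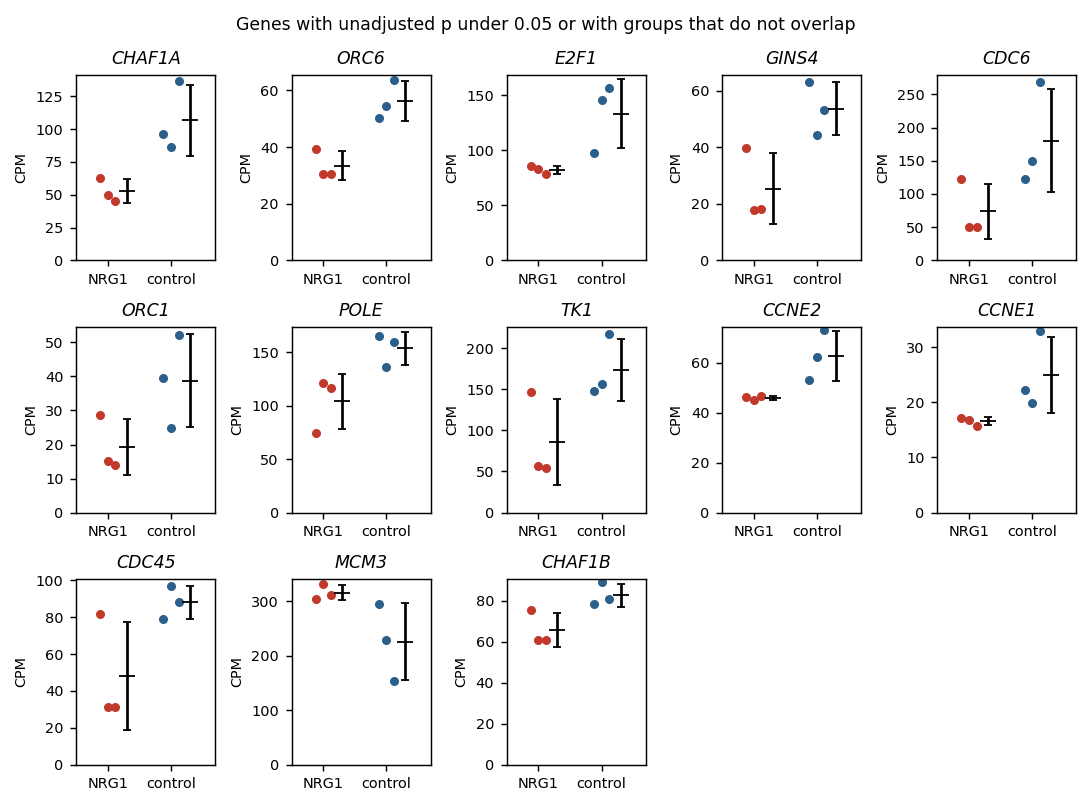
CPM (vertical axis, from 0) in the 3 NRG1 libraries (red, left) and the 3 control libraries (blue, right) for 13 genes, with the mean and SD of each group in black; within a group the points run from library 1 to library 3. NRG1 1 is the highest NRG1 library for CDC6, TK1, CDC45 and GINS4, while E2F1, CCNE1 and CCNE2 are level across the NRG1 libraries.

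Genes of helicase activation all had fold changes below 0. Relative to control, their median was 0.003 in NRG1 1, -0.95 in NRG1 2 and -0.91 in NRG1 3. The gap between NRG1 1 and the other NRG1 libraries was wide in CDC45, MCM10 and GINS4 and smaller in GINS1, GINS2 and GINS3. GINS4, a subunit of the GINS complex, was at 39.8, 17.8 and 18.3 CPM in NRG1 1 to 3, against 63.3, 44.5 and 53.2 CPM in control 1 to 3. It was the 1 gene of these 6 whose groups did not overlap, against 10.2% of all genes lower in every NRG1 library. The log2 fold change of GINS4 was -1.09 (SE 0.33, adjusted p = 0.342 in edgeR). CDC45, the helicase cofactor, was at 81.8, 31.1 and 31.2 CPM in NRG1 1 to 3, against 79.1, 96.7 and 88.3 CPM in control 1 to 3. NRG1 1 was inside the control range, and NRG1 2 and NRG1 3 were less than any control by a wide margin; with all 6 libraries its log2 fold change was -0.88 (SE 0.37, adjusted p = 0.413 in edgeR). NRG1 1 was seen to stand apart in these same data, and leaving it out for that makes p-values too small. Without NRG1 1, CDC45 was called as lower in NRG1 (log2 fold change -1.50, adjusted p = 0.0431 in edgeR). It was the 1 gene of the 39 called in that comparison, where 0.0648% of all genes were called as lower. MCM10, which helps to fire the loaded helicase, showed the same pattern at 60.6, 22.1 and 22.5 CPM in NRG1 1 to 3, against 51.7, 48.2 and 82.5 CPM in control 1 to 3, a log2 fold change of -0.80 (SE 0.41, adjusted p = 0.467 in edgeR). It was -1.45 without NRG1 1 and -0.53 without control 3. GINS1, GINS2 and GINS3 had smaller log2 fold changes, from -0.32 to -0.07. On the per-length scale GINS4 was the lowest of the 4 GINS genes in NRG1 (18.0 ± 7.77 TPM), whereas GINS3 was the lowest in control (24.6 ± 2.98 TPM, with GINS4 at 40.3 ± 6.27; SD, n = 3 each).

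The 11 polymerase, clamp and clamp loader genes had a median log2 fold change of -0.23, with 7 below 0. Groups did not overlap in POLE alone, 1 of 11, a count near the 10.2% of all genes lower in every NRG1 library. PCNA, the sliding clamp, was at 352, 302 and 296 CPM in NRG1 1 to 3, against 317, 286 and 304 CPM in control 1 to 3, a log2 fold change of 0.07 (SE 0.14). PCNA had the highest level of the 39 per length, 847 ± 32.8 TPM in NRG1 and 845 ± 29.9 TPM in control (SD, n = 3 each). POLE, the catalytic subunit of the leading strand polymerase, was at 74.3, 121 and 117 CPM in NRG1 1 to 3, against 165, 136 and 160 CPM in control 1 to 3. In POLE the groups did not overlap and NRG1 1 was the lowest library, the reverse of its place in CDC45 or TK1; the log2 fold change was -0.56 (SE 0.21, adjusted p = 0.384 in edgeR), or -0.37 without NRG1 1. POLE2, the second subunit of that polymerase, was at 16.2 to 20.4 CPM in NRG1 and 14.9 to 18.3 CPM in control. The clamp loader genes RFC2 to RFC5 had log2 fold changes from -0.41 for RFC5 to 0.18 for RFC2, with -0.38 for RFC3 and -0.34 for RFC4. RFC3 was at 56.2, 20.6 and 25.8 CPM in NRG1 1 to 3, against 50.1, 35.6 and 47.4 CPM in control 1 to 3, so its groups overlapped only through NRG1 1. Without NRG1 1 and control 3, RFC3 and RFC4 were called as lower in edgeR (log2 fold change -0.89 and -0.58, adjusted p = 0.0335 and 0.0295), while POLE was not. Leaving out these libraries for their distance makes such p-values too small. The primase and polymerase alpha genes PRIM1, POLA1 and POLA2, and POLD1 of the lagging strand polymerase, had log2 fold changes from -0.25 to 0.02.

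**Figure D4:**
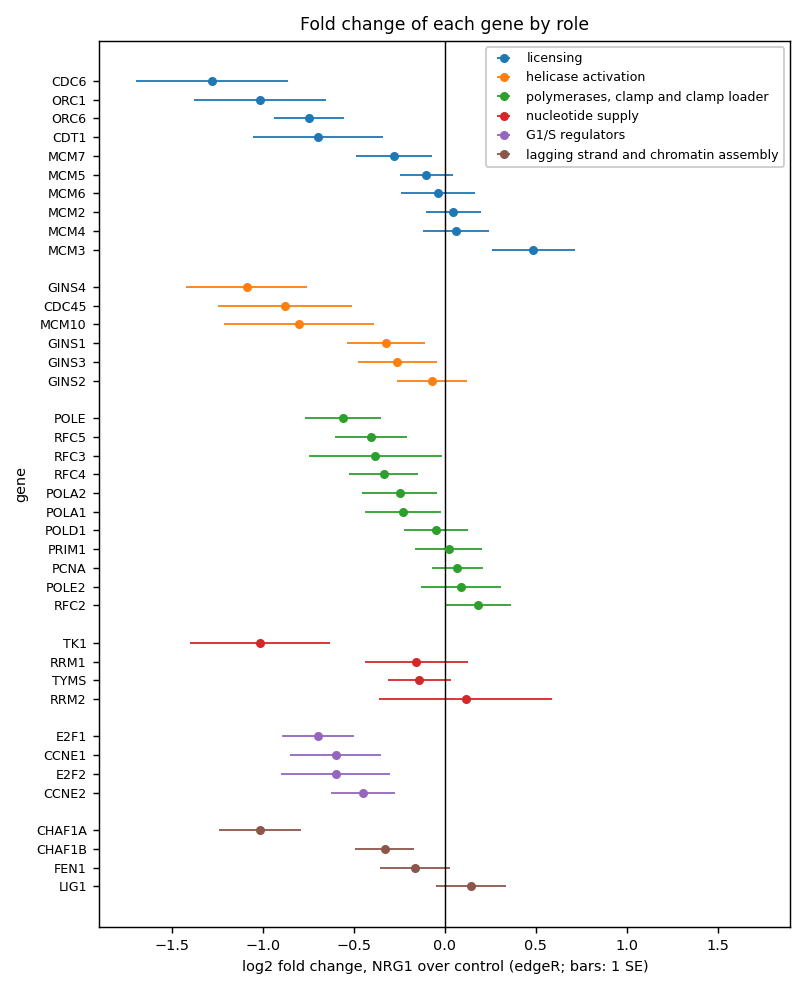
Log2 fold change, NRG1 over control (horizontal axis; points with bars of 1 SE, edgeR), for each of the 39 genes (vertical axis), coloured by role. The values run from -1.28 for CDC6 to 0.49 for MCM3, and all genes of helicase activation and G1/S regulation lie below 0.

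Nucleotide supply genes differed from each other, with TK1 far lower in part of the NRG1 libraries and TYMS about level. TK1, the thymidine salvage kinase, was at 146.6, 56.5 and 54.2 CPM in NRG1 1 to 3, against 147.2, 156 and 217 CPM in control 1 to 3, with NRG1 1 just under control 1. TK1 had a log2 fold change of -1.02 (SE 0.38, adjusted p = 0.387 in edgeR), and one of -1.65 without NRG1 1. TYMS, which makes thymidylate from deoxyuridylate, overlapped, at 81.1 to 98.4 CPM in NRG1 and 81.2 to 111 CPM in control. The log2 level of TK1 minus that of TYMS, a pair chosen after its values were seen, was 0.57 in NRG1 1, -0.68 in NRG1 2 and -0.58 in NRG1 3, against 0.48, 0.49 and 1.41 in control 1 to 3. RRM2, the small subunit of ribonucleotide reductase, was at 303, 110.1 and 106 CPM in NRG1 1 to 3, against 218, 182 and 80.1 CPM in control 1 to 3. The highest library was NRG1 1 and the lowest was control 3, and the log2 fold change was 0.11 (SE 0.48). Without these libraries it was -0.89. RRM1, the large subunit, was at 333, 172 and 155 CPM in NRG1 1 to 3, against 279, 234 and 223 CPM in control 1 to 3, again with NRG1 1 highest.

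Of the lagging strand and chromatin assembly genes, CHAF1A had the smallest p of the 39. CHAF1A, the large subunit of the chromatin assembly factor that places histones on new DNA, was at 62.9, 49.7 and 45.5 CPM in NRG1 1 to 3, against 96.4, 86.4 and 137 CPM in control 1 to 3. The groups did not overlap, and the mean was 52.7 ± 9.10 CPM in NRG1 and 107 ± 26.7 CPM in control (SD, n = 3 each). Its log2 fold change was -1.02 (SE 0.22, adjusted p = 0.258 in edgeR and 0.0136 in DESeq2), and from -1.16 to -0.80 with 1 library left out. CHAF1B, its partner subunit, was at 75.5, 61.0 and 61.0 CPM in NRG1 1 to 3, against 78.3, 89.1 and 81.0 CPM in control 1 to 3, a log2 fold change of -0.33 (SE 0.16). For both subunits, every NRG1 library thus lay below every control, as in 10.2% of all genes tested. FEN1, the flap nuclease, and LIG1, the ligase that seals lagging strand fragments, had log2 fold changes of -0.17 and 0.15 with overlapping groups.

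The gap between NRG1 1 and the other NRG1 libraries ran through most of the genes. NRG1 1 was the highest of the 3 NRG1 libraries in 33 of the 39 genes, against 44.9% of all genes tested. NRG1 2 and NRG1 3 both lay below all controls in 25 of the 39, against 22.2% of all genes, and both above in 2, against 22.5%. NRG1 1 lay below all controls in 11 of the 39 and above all in 9, against 30.1% and 28.3% of all genes. The 11 hold E2F1, CCNE1 and CCNE2 among others. Relative to the control mean, the median over the 39 genes was 0.00032 in NRG1 1, -0.44 in NRG1 2 and -0.44 in NRG1 3, against -0.05, -0.11 and 0.12 in control 1 to 3. In a comparison without NRG1 1 and control 3, left out for their distance from their groups, edgeR called 13 of the 39 genes as lower and 0 as higher, against 4.79% and 5.04% of all genes. The smallest adjusted p there were 0.00155 for TK1 (log2 fold change -1.45), 0.00261 for CDC6 (-1.44) and for CDC45 (-1.50), and 0.0043 for MCM10 (-1.16). E2F1 and the cyclin E genes were not among the 13. Leaving out libraries for their distance makes these p-values too small.

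Other genes of the same pathway were described from a second list of 44, all tested. Of these, 31 had a fold change below 0, 12 had an unadjusted p under 0.05, all lower, and 12 lay lower in every NRG1 library, with 2 higher; the background shares are those given above. None passed edgeR over all genes, and DESeq2 called 2 as lower. RECQL4, a helicase that takes part in replication initiation, was at 56.6, 51.9 and 47.8 CPM in NRG1 1 to 3, against 85.2, 106 and 115 CPM in control 1 to 3. CHTF18, of an alternative clamp loader, was at 33.6, 32.9 and 28.1 CPM in NRG1 1 to 3, against 56.0, 63.4 and 60.9 CPM in control 1 to 3. In both genes the groups were well apart, NRG1 1 included, with log2 fold changes of -0.97 (SE 0.17) and -0.93 (SE 0.17), adjusted p of 0.192 and 0.193 in edgeR, and DESeq2 called both. RNASEH2A, E2F7, ASF1B and TICRR also lay lower in every NRG1 library, with log2 fold changes of -0.76, -1.03, -0.73 and -0.92 and adjusted p from 0.327 to 0.358 in edgeR.

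Mitotic genes, the group nearest in function, were also lower in NRG1 2 and NRG1 3, so that pattern was not limited to the G1/S and DNA replication genes. NRG1 2 and NRG1 3 both lay below all controls in 20 of 28 mitotic genes, against 22.2% of all genes. With all 6 libraries the 28 mitotic genes had a median log2 fold change of -0.03, with 13 above 0 and 15 below. In that fit edgeR called 0 of the 28, against 0.00648% of all genes. Without NRG1 1 and control 3 edgeR called 26 of the 28 as lower and 0 as higher, against 4.79% and 5.04% of all genes. Their median log2 fold change there was -0.84, against -0.37 for the 39 genes. Leaving out these libraries for their distance makes such p-values too small. NRG1 1 was the highest of the NRG1 libraries in 28 of the 28, against 44.9% of all genes, and lay above all controls in 26, against 28.3%. Of the 28 mitotic genes, 0 lay lower in all 3 NRG1 libraries, against 10.2% of all genes. Set against the control mean, their median was 0.81 in NRG1 1, -0.69 in NRG1 2 and -0.68 in NRG1 3, against 0.26, 0.10 and -0.28 in control 1 to 3. MKI67, the proliferation marker, was at 842, 384 and 385 CPM in NRG1 1 to 3, against 619, 630 and 528 CPM in control 1 to 3. MYBL2, a late G1 and S phase transcription factor listed with the mitotic genes, was at 205, 110.1 and 103 CPM in NRG1 1 to 3, against 183, 284 and 280 CPM in control 1 to 3, a log2 fold change of -0.84 (SE 0.30, adjusted p = 0.369 in edgeR). In NRG1 1, then, median mitotic RNA was at its highest, and E2F1 and both cyclin E genes lay below every control. They are among the 11 of the 39 genes below every control in NRG1 1, a count near the 30.1% of all genes. Another 9 of the 39 lay above every control there, against 28.3% of all genes. The difference between the lists was not tested.

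**Figure D5:**
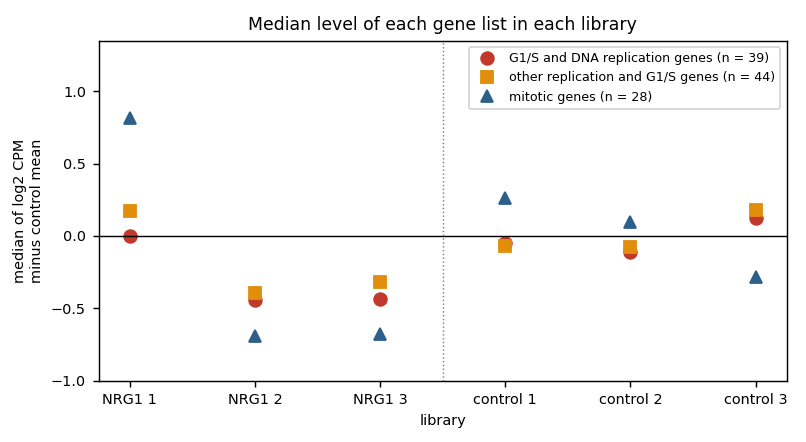
Median over each gene list of log2 CPM minus the control mean (vertical axis) in each library (horizontal axis). The mitotic genes spread from 0.81 in NRG1 1 to -0.69 in NRG1 2, and the G1/S and DNA replication genes from 0.12 in control 3 to -0.44 in NRG1 2.

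Some counts are uncertain because of overlapping or copied genes. In GENCODE 29, exons of TYMS share 39.2% of their bases with ENOSF1 on the opposite strand, those of CCNE2 share 37.1% with INTS8, and those of MCM2 and GINS4 share 22.7% and 21.2% with antisense genes. Without strand, reads of such partners cannot be told apart where they overlap. Processed pseudogenes of RRM2 and PCNA held at most 17.4 and 13.0 expected counts in any library.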

How the data were processed

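The authors' deposited expected counts per gene (estimated counts, not whole numbers, not normalized) were rounded and tested. Per the submitters' processing notes, RSEM 1.3.0 and STAR 2.5.3a were used with hg19, beside FastQC 0.11.3; no source used here names the annotation. RSEM shares reads that fit several genes. A second deposited table held log2 CPM of 14759 genes, within 1e-09 of TMM-scaled log2 CPM with a prior count of 0.25 recomputed from the counts; the design had assumed CPM, so values were turned back to CPM for limma-trend.

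edgeR 4.0.16 (R 4.3.3; TMM, filterByExpr, quasi-likelihood with legacy = FALSE, no covariate, Benjamini-Hochberg over 15421 genes, threshold 0.05) gave the main test, and its SE is the log2 coefficient over the root of F. DESeq2 1.42.0 (15 adjusted p undefined, counted as not called) and limma 3.58.1 were alternatives. DESeq2 and edgeR were also run on simulated data, and limma was not. Log2 levels per library used a prior count of 2. Symbols matched 51959 of 57736 identifiers. Exon lengths came from GENCODE 29 (GRCh38, merged exons, covering 98.98% of counts); isoform use is ignored, and promoters came from RefSeq. Precision follows depth: total expected counts ran from 8612234 to 13207620.

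Other alternatives were the scaling, the low-count filter, the replicate block, each library left out, the comparison without NRG1 1 and control 3, and, chosen after seeing the data, edgeR's older dispersion method; fits with fewer libraries kept the same 15421 genes. The genes, lists and tests were chosen with earlier results of these data known. Values per library are given for genes with an unadjusted p under 0.05, with groups that do not overlap, or among the 4 smallest p without NRG1 1 and control 3. Also given per library, chosen after their values were seen, are PCNA, RFC3, RRM1, RRM2 and MKI67. Of the other replication and mitotic lists, up to 6 with the smallest p could be named.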

Additional observations from a re-analysis of the deposited data

How the results depend on the processing

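Directions and calls changed as follows, with the cause not tested unless fewer libraries were used. Of the 15421 genes kept by the filter, those called were 1 in edgeR, 209 in DESeq2, 2 with the replicate block and 1515 without NRG1 1 and control 3; with 1 library left out they ran from 1 to 37. With no low-count filter, over all genes with a count, 21 were called. Of the 39 G1/S and DNA replication genes, 0 were called in edgeR, 1 in DESeq2, 13 without NRG1 1 and control 3, and 0 to 1 with 1 library left out. At an unadjusted p under 0.05 the 11 genes became 4 without control 3, 6 without NRG1 2, 6 without NRG1 3 and 20 without NRG1 1. Over all 15421 genes, in either direction, 1819 genes became 1455, 857, 790 and 2699 in the same order. The 44 other replication genes gave 2 calls in DESeq2 and 16 without both libraries, all lower, and the 28 mitotic genes gave 26 without both, all lower. The median of the 39 stayed below 0, from -0.46 to -0.18 with 1 library left out. Fold changes near 0 changed sign. Without both libraries the log2 fold change was -0.13 for MCM4, 0.13 for MCM6, -0.012 for PCNA, -0.017 for RFC2 and -0.13 for PRIM1. For RRM2 it was -0.89 there, called as lower (adjusted p = 0.0072 in edgeR), a p too small because of the libraries left out. MCM6 was at 0.018 with upper-quartile scaling, and PRIM1 at -0.016 with library totals alone and at -0.0021 with no filter. With 1 library left out the ranges were -0.021 to 0.15 for MCM2, -0.12 to 0.16 for MCM4, -0.17 to 0.19 for MCM6, -0.19 to 0.028 for GINS2, -0.016 to 0.11 for PCNA, -0.11 to 0.12 for PRIM1, -0.19 to 0.046 for POLD1, -0.0081 to 0.16 for POLE2, -0.58 to 0.040 for RRM1 and -0.56 to 0.40 for RRM2. The replicate block called 0 of the 39. No label says that replicate numbers pair libraries. Deviations of same-numbered libraries correlated at 0.02, 0.125 and -0.08, within a range of -0.176 to 0.164 over all pairs of an NRG1 and a control library. With 3 libraries per group these values cannot decide whether libraries were paired. The older edgeR dispersion method, limma-trend with either pseudocount and the 1 CPM filter changed no sign and no call of the 39. An E2F match within 150 bases of the start was found in 20 genes too.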
